A study of Mus musculus with 6 samples.

Results

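The X-linked miR-322 cluster is a row of miRNA hairpins read from one strand of the X chromosome, and 7 of its mature miRNAs were described in mouse spinal cord. They were selected on their levels in the comparison of control-labelled with SCI-labelled libraries, from the hairpins of this locus, and picked by name: mmu-miR-322-5p, mmu-miR-322-3p, mmu-miR-503-5p, mmu-miR-542-3p, mmu-miR-450b-5p, mmu-miR-450b-3p and mmu-miR-351-5p. All 7 were among the 1482 rows of the deposited table. Because the difference between the groups entered that choice, its values for the members are a description. Where a member is said to be past the edgeR test, that gives its place in the fit of all rows and is no independent support.

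The study made small RNA libraries from 6 mice, 3 per group, each from about 1 cm of cord around T10 taken on day 2 after surgery, with 3 µg of total RNA per library. The control-labelled mice had a laminectomy at T10 only. The SCI-labelled mice (SCI is spinal cord injury) had the same laminectomy and then a moderate contusion from a 10 g weight dropped 20 mm. Strain, sex and age of the mice are not stated in the labels. The tissue piece holds neurons, glia, vessels, blood and, after surgery, cells of the wound, so in these bulk samples fewer cells of a type and less RNA per cell cannot be told apart. The design text counts 6 mice and mentions no pooling, so each library was read as 1 mouse, and p-values measure the spread between these libraries.

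Total counts ran from 5568491 to 8889977 per library. Levels are given as CPM, the counts of a row over those of its library times 1e+06, after TMM scaling, which adjusts each library for its composition. In the deposited table the headings of the SCI-labelled columns read Normal, and those of the others Control. The injury miRNA miR-21a-5p was at 75088 to 129137 CPM across control-labelled libraries, against 11196 to 12739 CPM across SCI-labelled ones, which runs against the labels, so every direction here is that of the labels as deposited. Control-labelled library 3 stood apart from the others of its group in several ways. Skeletal muscle miRNAs summed to 37851 CPM there against 8311 and 11939 CPM. The neuronal miR-124-3p was at 2008 CPM there against 660 and 725 CPM. The erythroid miR-451a was at 6409 against 26640 and 18552 CPM, and the endothelial miR-126a-3p at 11748 against 28179 and 20901 CPM. Cord markers were present in each library, with the oligodendrocyte miRNA miR-219a-2-3p at 7012 to 10271 CPM and the neuronal miR-124-3p at 660 to 2008 CPM.

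A mature miRNA is cut as one of 2 arms (5p or 3p) from a hairpin, and its seed, bases 2 to 8 from the 5′ end, pairs with target mRNAs. Hairpins of a cluster are usually cut from one long primary transcript, after which each arm is loaded, trimmed and degraded on its own. miR-322 (called miR-424 in humans) and miR-503 are known for slowing the cell cycle through cyclins and Cdc25a, and they rise when muscle precursors leave the cycle and differentiate. Members of the cluster are also known from fibroblasts, endothelium and other mesenchymal cells.

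The sequences below are shown because the seeds decide which members count as relatives. They are the mature forms from RefSeq on GRCm38.p6, 5′ to 3′, with the seed in capitals. All 7 names matched a RefSeq entry.
miR-322-5p: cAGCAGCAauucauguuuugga
miR-503-5p: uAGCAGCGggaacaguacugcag
miR-322-3p: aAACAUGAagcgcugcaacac
miR-351-5p: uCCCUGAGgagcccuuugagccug
miR-542-3p: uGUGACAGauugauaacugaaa
miR-450b-5p: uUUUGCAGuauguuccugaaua
miR-450b-3p: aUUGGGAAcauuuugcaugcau
No 2 members share a seed. Counted from 1 at the 5′ end, the seeds of miR-322-5p and miR-503-5p differ by A8G. Among 1679 mature mouse names searched, the seed of miR-322-5p is shared with 9 others, among them miR-15b-5p and miR-16-5p, and that of miR-351-5p with 4, among them miR-125a-5p and miR-125b-5p. The seed of miR-450b-3p is shared with 2, one of which, miR-450a-1-3p, comes from the same locus. The other members have seeds found in no other name.

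The 7 hairpins of the locus span 6353 bases at chrX:53047997-53054349 on the minus strand of GRCm38. In the direction of transcription they are Mir322 (chrX:53054255-53054349), Mir503 (chrX:53053984-53054054), Mir351 (chrX:53053255-53053353), Mir542 (chrX:53049403-53049487), Mir450-2 (chrX:53048299-53048367), Mir450-1 (chrX:53048154-53048244) and Mir450b (chrX:53047997-53048078). None lies within another gene of GENCODE M21. The noncoding gene C430049B03Rik ends 696 bases before Mir322 on the same strand, and the lincRNA Gm28730 lies between Mir351 and Mir542. Mir503 starts 200 bases after Mir322, and Mir450-1 54 bases after Mir450-2.

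All 7 members passed the filter on low counts, which kept 614 rows. miR-450b-3p passed it through the control-labelled group alone. By edgeR's quasi-likelihood test with p-values adjusted over the 614 rows, 6 of the 7 were lower in the SCI-labelled libraries, where 23.1% of all tested rows were lower and 16.3% higher. For the same 6, no SCI-labelled library reached the lowest control-labelled one, against 28.0% of tested rows that were lower without overlap. Since the contrast entered the choice of members, nothing is read from these shares. The median log2 change of the members was -1.72, beside -0.07 over all tested rows, and the members' changes ran from -3.26 to -0.73. Together the members held 0.0435% ± 0.00385 of all counts across control-labelled libraries, against 0.0167% ± 0.00397 across SCI-labelled ones (SD, n = 3 each). They are thus minor miRNAs of the tissue in every library.

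**Figure D1:**
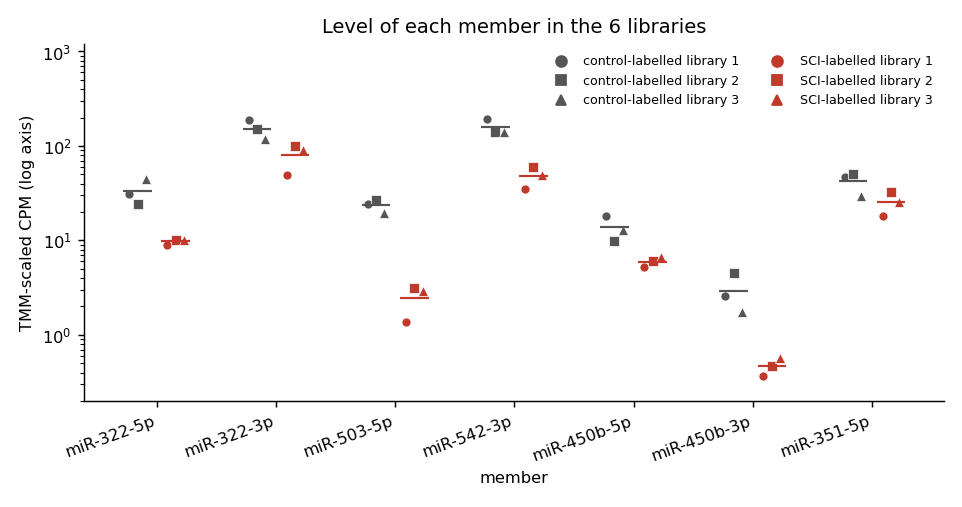
TMM-scaled CPM of each member on a log axis, with 1 point per library (grey control-labelled, red SCI-labelled, shapes for library numbers) and a bar at each group mean of 3 libraries. The groups are apart for every member but miR-351-5p, and miR-503-5p and miR-450b-3p show the widest gaps. miR-450b-3p had only 3 to 5 counts per SCI-labelled library and passed the filter through the control-labelled group alone.

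miR-503-5p, a cell cycle miRNA close to the miR-15/16 family, had the largest difference of the members. It was at 24.5, 27.0 and 19.5 CPM in control-labelled libraries 1, 2 and 3 and at 1.36, 3.10 and 2.94 CPM in the SCI-labelled ones. In counts these were 153, 149 and 166 against 11, 20 and 26. The lowest control-labelled library was thus several times above the highest SCI-labelled one. The SCI-labelled level was 9.56-fold lower than the control-labelled one (log2 -3.26, SE 0.34).

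miR-322-5p carries the miR-15/16 seed. Its levels were 30.9, 24.1 and 45.2 CPM across control-labelled libraries, against 9.04, 10.2 and 10.2 CPM across SCI-labelled ones. Control-labelled library 3 was the highest and the SCI-labelled libraries lay close together, with no overlap. The group difference was 3.41-fold lower (log2 -1.77, SE 0.27). The opposite arm, miR-322-3p, was more abundant, at 189, 150 and 117 CPM against 49.3, 101 and 91.3 CPM. Its control-labelled library 3 was the lowest of that group, and the gap to the highest SCI-labelled library was narrow. miR-322-3p was 1.89-fold lower (log2 -0.92, SE 0.31). Without control-labelled library 1 its log2 change was -0.67 and without SCI-labelled library 1 it was -0.63, and it was then not past the edgeR test (adjusted p = 0.149 and 0.145). It was also not past it without control-labelled library 2 or SCI-labelled library 2 or 3 (edgeR adjusted p = 0.0914, 0.0703 and 0.102), where the log2 changes of -0.94, -1.07 and -0.99 were no smaller than with all libraries.

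miR-542-3p, known for targeting the inhibitor of apoptosis survivin, had the highest mean level of the members in the control-labelled group, close to that of miR-322-3p. It was at 194, 141 and 141 CPM in the control-labelled libraries and at 35.2, 59.5 and 49.4 CPM in the SCI-labelled libraries. The groups were well apart, and SCI-labelled library 1 was the lowest of the 6. The SCI-labelled level was 3.30-fold lower than the control-labelled one (log2 -1.72, SE 0.26).

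miR-450b-5p was at 18.3, 9.96 and 13.0 CPM across control-labelled libraries, against 5.20, 6.04 and 6.68 CPM across SCI-labelled ones. That is 2.29-fold lower (log2 -1.20, SE 0.29), without overlap. Without SCI-labelled library 1 or 2 it was not past the edgeR test (adjusted p = 0.0605 and 0.0556), at log2 changes of -1.08 and -1.15. Its other arm, miR-450b-3p, was rare, with 16, 25 and 15 counts across control-labelled libraries, against 3, 3 and 5 across SCI-labelled ones. Over the summed counts of 56 and 11, the ratio of SCI-labelled to control-labelled was 0.170 with an exact 95% interval of 0.0805 to 0.329, which covers counting error only. The groups did not overlap (fitted log2 change -2.57, SE 0.51), but its level in the SCI-labelled group is set by few reads.

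miR-351-5p, which carries the seed of the miR-125 family, had the smallest difference. It was at 46.6, 50.9 and 29.7 CPM across control-labelled libraries, against 18.0, 32.7 and 25.8 CPM across SCI-labelled ones. The groups overlapped, since control-labelled library 3 was below SCI-labelled library 2. Its log2 change of -0.73 (SE 0.29) did not pass the edgeR test. Without control-labelled library 3 it was -0.90 and passed (edgeR adjusted p = 0.00914). All 7 members were then past the test, with a median log2 change of -1.45, and 28.2% of all tested rows were lower past it.

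The other mature miRNAs of the locus were left out of the member list with their values known, so these too are descriptions. The table held all 6 of them, and 2 passed the filter. miR-450a-5p, cut from both Mir450-1 and Mir450-2 with the same sequence, was at 48.7, 27.7 and 36.6 CPM across control-labelled libraries, against 37.4, 39.8 and 50.7 CPM across SCI-labelled ones. The groups overlapped and the log2 change was 0.18 (SE 0.25). Its neighbour miR-450b-5p, 75 bases further along from the Mir450-1 hairpin to the Mir450b hairpin, had a log2 change of -1.20. The change of miR-450a-5p was smaller than its SE, so no direction is read from it.

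The sequences of the 2 miR-450 5p arms are shown to give the bases that tell their reads apart.
miR-450a-5p: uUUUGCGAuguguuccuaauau
miR-450b-5p: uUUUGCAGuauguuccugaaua
They differ at 7 of 22 positions, of which G7A and A8G lie in the seed. The 3p arms miR-450b-3p and miR-450a-1-3p are closer, since they differ only by a few bases near the 3′ end. How reads that match several miRNAs were counted is not given, so reads of these rare 3p arms may not be fully told apart.

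miR-503-3p was at 24.2, 13.8 and 8.83 CPM across control-labelled libraries, against 6.69, 12.9 and 12.6 CPM across SCI-labelled ones. Its groups overlapped, with a log2 change of -0.54 (SE 0.41). Neither of these 2 rows was past the edgeR test (0 at an unadjusted p under 0.05, and 0 by DESeq2 or limma voom). The others had few reads. miR-351-3p had 11, 9 and 6 counts against 2, 2 and 3, and miR-450a-1-3p 6, 4 and 3 against 0, 1 and 0. The ratios of summed counts, SCI-labelled to control-labelled, were 0.234 (exact 95% counting interval 0.0856 to 0.553) and 0.0668 (0.00157 to 0.444). miR-542-5p had 3, 1 and 2 counts against 4, 5 and 6, a ratio of 2.17 whose interval of 0.795 to 6.82 includes equality. miR-450a-2-3p had at most 1 count in any library.

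**Figure D2:**
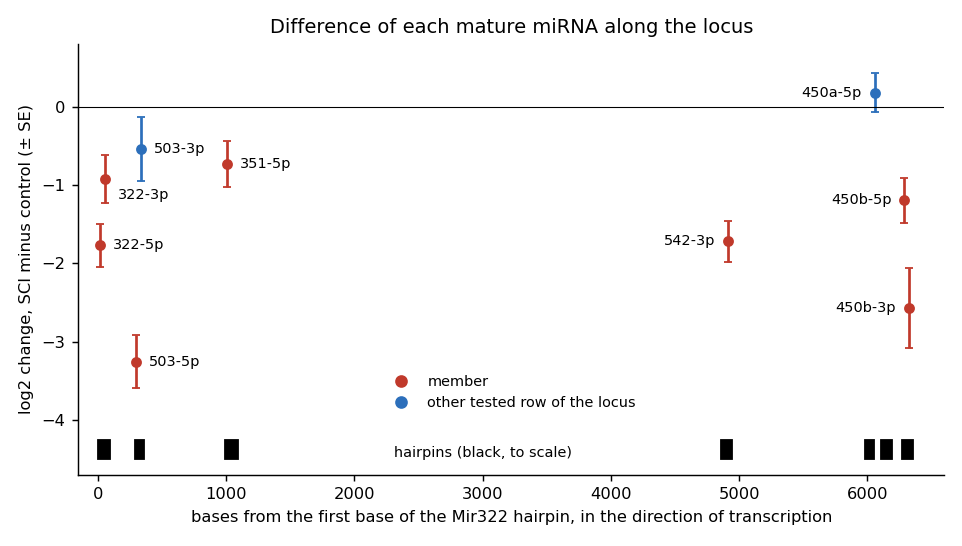
Log2 change between the groups (SCI-labelled minus control-labelled, bars ± SE) of the 9 tested mature miRNAs against their distance in bases from the start of the Mir322 hairpin, with hairpins drawn to scale as black boxes. Values at one end of the locus range from -3.26 (miR-503-5p) to -0.54 (miR-503-3p), and at the other from -2.57 (miR-450b-3p) to 0.18 (miR-450a-5p). miR-450a-5p is plotted midway between its pair of hairpins.

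The composition of the cluster, as a share of the counts of the 7 members, does not depend on library scaling. miR-322-3p and miR-542-3p made up most of it in every library. miR-542-3p took 37.1% ± 2.17 across control-labelled libraries, against 28.0% ± 1.64 across SCI-labelled ones (SD, n = 3 each). miR-322-3p took 35.4% ± 3.01 and 45.9% ± 3.80, so it was the leading member in each SCI-labelled library. The share of miR-503-5p was 5.60% ± 0.915 and 1.39% ± 0.219, and that of miR-351-5p 9.93% ± 2.28 and 14.8% ± 0.847.

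Arm use is given as the share of the 5p arm in a hairpin's counts within a library. Whether the libraries capture both arms equally well was not tested. A capture bias common to all 6 libraries cannot be told apart from arm use. The hairpin of miR-503 is printed because its 5p share differed most between the groups in percentage points. That follows in part from the choice of members, since miR-503-5p was taken and miR-503-3p left out with their values known. Both arms are in capitals, 5p before 3p, from RefSeq at chrX:53053984-53054054 on GRCm38.p6, minus strand.
Mir503: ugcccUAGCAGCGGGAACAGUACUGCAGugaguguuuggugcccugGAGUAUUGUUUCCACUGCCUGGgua
The 5p share was 50.3%, 66.2% and 68.9% across control-labelled libraries, against 16.9%, 19.4% and 19.0% across SCI-labelled ones. These shares are a description, without a test between the groups. In control-labelled library 1 the arms were about even, at 153 counts of 5p and 151 of 3p (exact 95% binomial interval of the share 44.6% to 56.1%, counting error only). 5p was the more abundant arm in control-labelled libraries 2 and 3, and 3p in the SCI-labelled libraries.

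Most reads of miR-322 were of its 3p arm in every library. The 5p share was 14.1%, 13.8% and 27.8% across control-labelled libraries, against 15.5%, 9.23% and 10.0% across SCI-labelled ones. Only control-labelled library 3 departed far from the rest, with an interval of 25.5% to 30.3%. The log2 ratio of 3p to 5p averaged 2.59 ± 0.68 (SD, n = 6 libraries), and 3p was higher in 6 of 6 (exact two-sided sign-flip permutation p = 0.03125, the smallest possible with 6 libraries, and 0.03125 after Benjamini-Hochberg adjustment over 2 hairpins). For miR-450b most reads were of the 5p arm. Its log2 ratio of 3p to 5p was -2.99 ± 1.00 (SD, n = 6 libraries), and 5p was higher in 6 of 6 (exact permutation p = 0.03125 and 0.03125 adjusted). Its 5p share was 87.7%, 68.8% and 88.0% across control-labelled libraries, against 93.3%, 92.9% and 92.2% across SCI-labelled ones. Control-labelled library 2 was the low one. miR-351 was at 96.4% to 97.7% 5p across control-labelled libraries, against 98.6% to 99.1% across SCI-labelled ones. miR-542 was at 0.128% to 0.248% against 1.29% to 1.39%. The shares of miR-450b, miR-351 and miR-542 thus did not overlap between the groups either, but their minor arms had few reads. No share was tested between the groups.

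**Figure D3:**
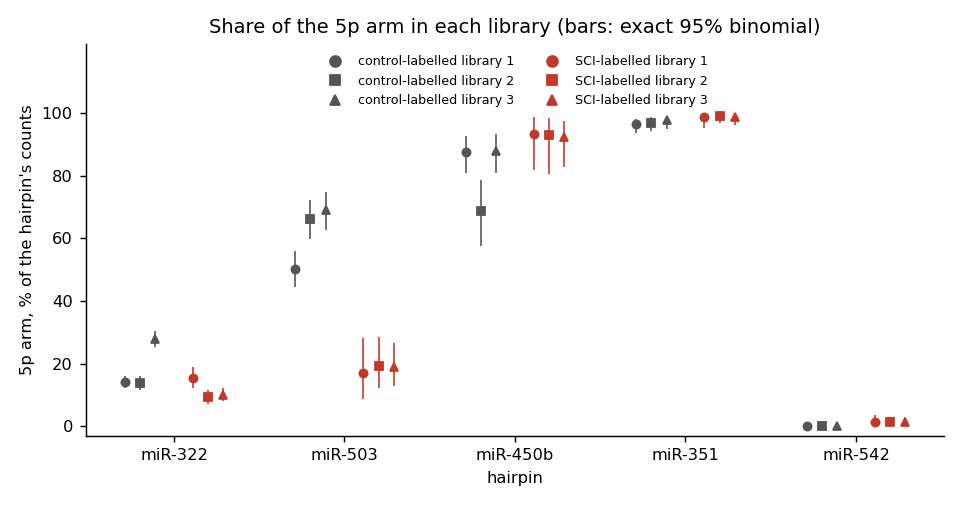
Share of the 5p arm in percent of a hairpin's 5p and 3p counts, with 1 point per library and exact 95% binomial bars (counting error only). In percentage points the groups are furthest apart for miR-503, at 50.3% to 68.9% against 16.9% to 19.4%. The points of miR-450b, miR-351 and miR-542 also do not overlap between the groups. Their minor arms had few reads, and for each of them some bars of the groups overlap.

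The miRNAs outside the locus that share a member's seed act on overlapping sets of target mRNAs. The list for the miR-15/16 seed family also had 9 names, but it held miR-1907 in place of miR-195b from the seed search. Of the 9 listed, 5 were in the table and all 5 were tested. Of these 5, 4 were lower past the edgeR test and 1 was not past it, where 23.1% of all tested rows were lower. Their median log2 change was -1.94. miR-15b-5p, from the Smc4 locus, was at 285, 371 and 223 CPM across control-labelled libraries, against 23.2, 28.5 and 39.1 CPM across SCI-labelled ones (log2 -3.27, SE 0.30; edgeR adjusted p = 0.000137). miR-16-5p, the most abundant of the family, had a mean of 1887 ± 89.4 and 381 ± 13.2 CPM (SD, n = 3 each), 4.96-fold lower (adjusted p = 7.02e-05 by edgeR). miR-15a-5p was lower by 3.83-fold and miR-195a-5p by 2.40-fold. miR-497a-5p, which shares a locus with miR-195a, had a log2 change of -0.46 and its groups overlapped. The family summed to 2338 to 2586 CPM across control-labelled libraries, against 502 to 527 CPM across SCI-labelled ones, so miR-322-5p was a small part of all molecules with this seed in either group.

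miR-351-5p was likewise a small part of its seed group. miR-125b-5p was at 6409 ± 1038 and 5670 ± 347 CPM and miR-125a-5p at 1087 ± 320 and 1141 ± 224 CPM (SD, n = 3 each). Their log2 changes were -0.18 (SE 0.18) and 0.07 (SE 0.26), the groups of each overlapped, and neither was past the edgeR test (0 of 2 at an unadjusted p under 0.05, and 0 by DESeq2 or limma voom).

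**Figure D4:**
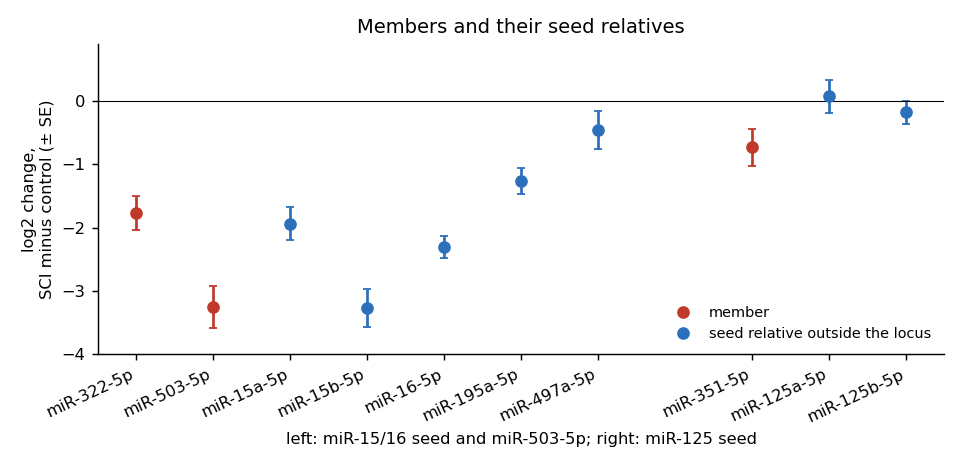
Log2 change (SCI-labelled minus control-labelled, ± SE) of miR-322-5p, miR-503-5p and miR-351-5p in red and, in blue, of the miRNAs outside the locus with the seed of miR-322-5p (the miR-15/16 family) or of miR-351-5p (miR-125). miR-503-5p shares its seed with neither. The miR-15/16 relatives range from -3.27 to -0.46, and the miR-125 relatives lie at -0.18 and 0.07, next to miR-351-5p at -0.73.

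Other miRNAs of the X chromosome were set beside the cluster. Positions were matched for 521 of the 614 tested rows, and 44 tested rows outside the locus lay on X alone. Of these, 15 (34.1%) were lower past the test, 7 higher and 22 neither, where 23.1% of all tested rows were lower and 16.3% higher. Their median log2 change was -0.31. Large changes were present in each direction, such as miR-223-3p, a myeloid miRNA, at -3.75 and miR-1298-5p at 1.86. The members' median of -1.72 was below that of the X-linked rows, without a test of that difference.

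**Figure D5:**
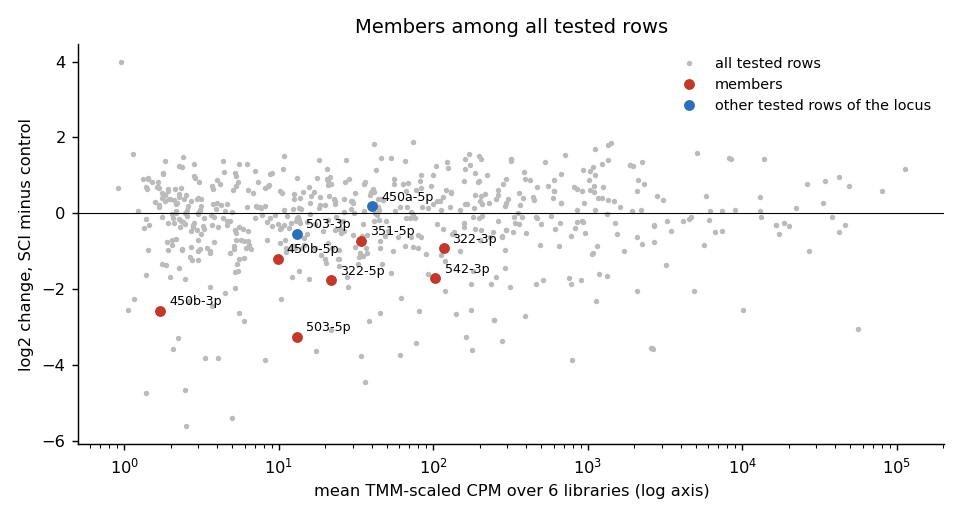
Log2 change (SCI-labelled minus control-labelled) of the 614 tested rows in grey against mean TMM-scaled CPM on a log axis, with the 7 members in red and the other tested rows of the locus in blue. All members lie below 0, between -3.26 and -0.73, at mean levels of 1.71 to 116 CPM.

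The members varied among themselves also within a group. In the SCI-labelled group, library 1 had the lowest CPM for each of the 7 members. For miR-322-5p, miR-450b-5p and miR-450b-3p this came from library size. Their counts in library 1 (73, 42 and 3) were no lower than in library 2 (66, 39 and 3). How many of all tested rows were lowest in library 1 was not counted. The gap was widest for miR-322-3p, miR-503-5p, miR-542-3p and miR-351-5p. The log2 ranges of these over the 3 libraries were 1.01, 0.80, 0.74 and 0.83, beside medians of 0.35 to 0.38 for the 50 tested rows nearest each in level. miR-322-5p, at 0.16, was narrower than its near rows, at 0.34. In the control-labelled group the widest range among members with over 100 counts in each library was that of miR-322-5p, at 0.88 against 0.61 for near rows, with library 3 the highest.

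Likeness to miR-322-5p was taken as Pearson's r of log2(CPM + 1) over the 6 libraries, which share their group difference and scaling, and is given without a test. Among 267 miRNAs outside the locus whose mean level reached 50 CPM, the most alike were miR-378a-3p (0.98), miR-195a-5p (0.98), miR-674-5p (0.98), miR-378c (0.98) and miR-652-3p (0.97). The other members stood at 0.58 (miR-351-5p) to 0.92 (miR-542-3p). With each group's mean taken off, so that only the spread between libraries of a group counts, the most alike were miR-329-5p (0.97), miR-485-3p (0.96), miR-335-3p (0.95), miR-598-3p (0.94) and miR-1298-3p (0.94), and the other members stood at -0.89 to 0.35. All 5 of these miRNAs outside the locus had log2 changes above 0, from 0.86 to 1.38, against -1.77 for miR-322-5p. The log2 range of miR-322-5p was 0.88 in the control-labelled group and 0.16 in the SCI-labelled group. The r values with group means taken off thus rest mainly on the control-labelled libraries, where library 3 was the highest. The limit of 50 CPM was not applied to the members, most of which lie below it. The value of -0.89 was that of miR-450b-3p, at 3 to 25 counts per library.

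Marker miRNAs of cells in which the cluster is known were read in the same libraries, and their part in the members' values was not tested. Beside the counts for each marker list stand the shares of all tested rows past the edgeR test, 23.1% lower and 16.3% higher. The lists were chosen with earlier results of these data known. Some hold both arms of a hairpin or several miRNAs of one cluster, so their rows are not separate, and the counts are descriptions. Of 6 tested skeletal muscle miRNAs, 0 were lower and 1, miR-499-5p, was higher past the edgeR test. At an unadjusted edgeR p under 0.05 there was 1 of the 6, and DESeq2 and limma voom passed 1 each. The muscle sum was 8311 to 37851 CPM in the control-labelled and 9872, 20465 and 15225 CPM in SCI-labelled libraries 1, 2 and 3. Control-labelled library 3 had the highest muscle sum and miR-124-3p level of its group, and the lowest erythroid and endothelial sums. There miR-322-5p was the highest of its group, and miR-322-3p, miR-503-5p, miR-351-5p, miR-450b-3p and, by a small margin, miR-542-3p were the lowest. All 5 mesenchyme and fibroblast miRNAs were lower, with a median log2 change of -1.61 and sums of 3220, 1931 and 3515 CPM against 600, 1123 and 945 CPM. SCI-labelled library 1, the lowest of these, was also the lowest of its group in the sum of the members, at 118 CPM against 213 and 187 CPM. That is not particular to the mesenchyme list. The same library was the lowest of its group for the muscle sum and for the leukocyte and miR-17-92 sums given below. The members summed to 505, 408 and 367 CPM in control-labelled libraries 1, 2 and 3, an order unlike that of the mesenchyme sums.

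All 6 miRNAs of the miR-17-92 cluster, known from dividing cells, were lower, with a median log2 change of -2.77 and sums of 2304 to 2869 CPM against 526 to 551 CPM. The leukocyte list was lower for 5 of 5 (sums of 1778 to 2983 CPM against 328 to 450 CPM) and the erythroid list for 4 of 4 (9424 to 32712 CPM against 2481 to 5230 CPM). In smooth muscle and pericytes 1 of 4 (25.0%) was lower, near the 23.1% of all tested rows, at sums of 8839 to 17512 CPM against 13543 to 14179 CPM. Neither of the 2 endothelial and none of the 3 oligodendrocyte miRNAs was past the edgeR test, with 0 of either list at an unadjusted p under 0.05 and 0 past the test by DESeq2 or limma voom. Sums were 12209 to 28509 against 16409 to 18786 CPM for endothelium and 8047 to 10921 against 9580 to 10496 CPM for oligodendrocytes. Of 5 neuronal miRNAs 3 were higher, with sums of 12824 to 15909 CPM against 32193 to 37821 CPM. Most of these sums came from miR-218-5p and miR-128-3p. The other 2, miR-124-3p and miR-132-3p, had log2 changes of -0.52 and -0.09. Their groups overlapped and neither was past the edgeR test. Both miR-21a arms were lower. No marker on these lists was at 0 in every library.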

How the data were processed

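All 12 value columns of the deposited table were tied to samples by the column names in the sample descriptions. Per the file headers, it gives read counts, which the authors deposited as whole numbers without normalization, and TPM. The deposited TPM equals CPM from the library total to within 2.74e-05, with no length term. Per the submitters' processing notes, Bowtie and mm10 were used; for the miRBase release, and for reads that match several miRNAs, nothing is given in the sources used here.

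Rows were kept by filterByExpr (minimum count 10; 614 of 1482), scaled by TMM and tested with edgeR 4.0.16 in R 4.3.3 (robust quasi-likelihood F test, group as the only term), with Benjamini-Hochberg adjustment over all 614 rows at 0.05. SE is the size of the log2 change over the square root of F. limma 3.58.1 and DESeq2 1.42.0 served as alternatives. The steps were tested on simulated data. Library pairs all differed by more than sampling noise. Sequences and positions came from RefSeq (GRCm38.p6) and GENCODE M21.

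The members, seed families and marker lists were chosen with earlier results of these data known. Named miRNAs were the members, all other rows of the locus, the tested seed relatives, the 5 rows most like miR-322-5p by each measure, and examples from the marker lists; the X-linked examples were chosen after their values were seen. Intervals cover counting error only, since reads carry no molecular identifiers.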

Additional observations from a re-analysis of the deposited data

How the results depend on the processing

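Each member stayed lower in the SCI-labelled libraries in every alternative that gave it a value (17 each, and 16 for miR-450b-3p, which the filter of 50 counts removed). Since the contrast chose the members, and miR-450b-3p passed the filter through 1 group, these counts describe the settings and support nothing. miR-450b-5p was past the test in 15 of 17, miR-322-3p in 10 of 17, miR-351-5p in 6 of 17 and the other members in each setting that gave a value. The number of members past the test ran from 4 (without SCI-labelled library 1 or 2) to 7, and was 5 with upper quartile scaling and 6 with DESeq2.

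The members' median log2 change moved from -1.72 to -1.60 with upper quartile scaling, -1.48 with at least 50 counts (over 6 members, since that filter removed miR-450b-3p), -1.57 with limma voom, -1.41 with limma on log2(TPM + 1) and -0.94 with a pseudocount of 10, which shrinks the changes of low rows by its construction. For the moves with upper quartile scaling and limma voom the cause was not tested. Leaving out 1 library gave -1.81 to -1.45, and all tested rows past the test then ran from 87 lower and 54 higher (without SCI-labelled library 3) to 179 and 152 (without control-labelled library 3). Upper quartile scaling moved the median of all tested rows by 0.11, and the members' median relative to it was -1.64 there and -1.65 in the main setting.

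Replicate numbers do not pair the libraries: same-numbered libraries had correlations of deviations from group means of -0.28, 0.21 and -0.19 over 614 rows. With the replicate block, 5 members were past the test, with a median of -1.73, and all tested rows past it fell from 142 lower and 100 higher to 112 and 78. miR-322-3p lost its call there (edgeR adjusted p = 0.0661) and with upper quartile scaling (0.0599). miR-351-5p gained one with the library total (0.0413), limma voom (0.0210) and limma on log2 TPM (0.0391 with a pseudocount of 1). Depth limits miR-450b-3p and the minor arms of miR-351, miR-450a and miR-542, where 1 count is worth 0.112 to 0.180 CPM. No group had 4 or more libraries, so none was searched for an outlying library.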
